A study of Arabidopsis thaliana with 4 samples.

Results

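The genes described here are the NAC transcription factors of Arabidopsis thaliana, taken as every gene of the deposited table whose short name holds NAC followed by digits, with the loci AT1G69490 and AT5G39610 left out. The rule found 82 of 33557 genes. Of these, 2 are not NAC genes: the listed names GlcNAc1pUT1 and GlcNAc1pUT2 belong to enzymes of N-acetylglucosamine metabolism, and they were set aside at 33.3 to 40.6 and 15.9 to 19.1 FPKM. The remaining 80 are named below by their ANAC number. All 80 were matched by locus to the reference annotation.

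NAC proteins are a plant-specific family that binds DNA through a conserved N-terminal domain. Members direct xylem and fibre wall formation, root cap maturation, organ boundaries and lateral roots, senescence, and responses to drought, wounding and oxidative stress. Several are held at membranes and enter the nucleus after cleavage. Among them, ANAC013 and ANAC017 carry signals from disturbed mitochondria to nuclear genes such as the alternative oxidase AOX1A.

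The series is poly(A)+ RNA sequencing of plants grown upright on agar medium without phosphate for 7 days, with 1 library each of the double mutant hho2phr1, the single mutants phr1 and hho2-1, and the wild type Col-0. All 4 are in the Col-0 accession and all 4 were phosphate-deprived, so nothing here measures the response to phosphate itself. The labels call both single mutants SALK T-DNA lines, and do not state the organ harvested. With 1 library per genotype there is no replicate check, and no p-value is given for any difference.

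Values are FPKM, fragment counts scaled by transcript length and a library size. The depths given next are the library sizes that the FPKM values imply, which a scaling between libraries would change. Depths estimated from genes with a single fragment were 40400000, 38800000, 44500000 and 47700000 fragments for hho2phr1, phr1, hho2-1 and Col-0, at which 1 fragment per kilobase is worth 0.0210 to 0.0258 FPKM. PHR1, the regulator of phosphate starvation genes, was at 6.50 and 7.54 FPKM in hho2phr1 and phr1, against 43.2 and 37.7 in hho2-1 and Col-0. AT1G68670, the locus taken here for HHO2, which has no symbol in the table or the reference, was at 51.8 and 59.8 FPKM in hho2phr1 and hho2-1, against 81.2 and 90.7 in phr1 and Col-0. Markers of shoot (RBCS1A, 1231 to 1466 FPKM) and of root (PYK10, 4394 to 5607 FPKM) were present in every library. Other organ markers varied more between libraries. The shoot gene LHCB1.1, of the light-harvesting antenna, was at 294, 106, 213 and 188 FPKM in hho2phr1, phr1, hho2-1 and Col-0, and the root aquaporin gene TIP2;3 was at 14.5, 14.7, 6.75 and 14.8. Summed over 7 markers each, shoot genes were at 5391, 3935, 4656 and 4044 FPKM and root genes at 5246, 4774, 4620 and 5871 in the same order. In such bulk samples fewer cells of a type and less RNA per cell cannot be told apart.

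Upstream sequence is shown first for the pair of members that differed with the phr1 allele in both HHO2 backgrounds, ANAC013 and JUB1 (ANAC042). Each run is the 300 bases before the annotated gene start, 5′ to 3′ on the gene's strand, from the RefSeq genome of TAIR10.1. ANAC013 lies on the plus strand and its window is chr1:11911331-11911630. JUB1 lies on the minus strand and its window is chr2:17882637-17882936. Neither window overlaps another annotated gene, and neither holds a match to the motifs described next, so neither run has capitals.
ANAC013: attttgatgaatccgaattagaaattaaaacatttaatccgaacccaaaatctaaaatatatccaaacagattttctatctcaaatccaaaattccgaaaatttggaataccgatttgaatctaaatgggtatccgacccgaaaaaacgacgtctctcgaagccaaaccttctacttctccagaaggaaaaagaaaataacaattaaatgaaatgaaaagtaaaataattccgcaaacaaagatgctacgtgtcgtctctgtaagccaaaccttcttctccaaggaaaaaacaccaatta
JUB1: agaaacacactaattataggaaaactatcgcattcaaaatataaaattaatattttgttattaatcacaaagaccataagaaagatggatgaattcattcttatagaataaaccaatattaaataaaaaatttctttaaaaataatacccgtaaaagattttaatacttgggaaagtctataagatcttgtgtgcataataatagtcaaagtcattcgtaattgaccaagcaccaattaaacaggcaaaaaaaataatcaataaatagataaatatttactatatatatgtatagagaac

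Both strands of such a window were searched for every gene for the letters GNATATNC, the binding site of PHR1, and for the mitochondrial dysfunction motif, which is bound by ANAC013 and ANAC017. The PHR1 site was in 1 of 80 NAC windows, that of ANAC064, against 6.48% of 26686 protein-coding windows. The mitochondrial motif was in 4 of 80, or 5%, against 2.05% of the same 26686 windows. Those 4 members were ANAC010, ANAC017, ANAC044 and ANAC045. Of 8 mitochondrial stress genes listed as a companion set, 2 held it, the NADH dehydrogenase gene NDB2 and AT2G21640, which the reference calls a marker of oxidative stress response. The matches are shown with 8 bases on either side, in the gene's direction, with the motif in capitals. The match before ANAC017 lies on the other strand, and the stretch shown overlaps the annotated gene ANAC016. No NAC window held both motifs, so no matches overlapped.
ANAC010 (chr1:10010028-10010056, plus): ttcataaaCTTGACGTCCACGcaacctcc
ANAC017 (chr1:12451287-12451315, plus): acctctgtCGTGTCAGACAAGaatgttgg
ANAC044 (chr3:229002-229030, plus): gtatctggCTTGGGGAGCAAGgttagcgg
ANAC045 (chr3:738652-738680, minus): tatataacCTTGCTCTCCAAGccctcaac
AT2G21640 (chr2:9254319-9254347, plus): tttagtaaCTTGCTCTCCAAGgagatcta
NDB2 (chr4:2572340-2572368, plus): cgatctggCTTGGCCACCAAGattgtttg
ANAC064 (chr3:20950163-20950186, minus): ttcgtaaaGTATATTCatgaccat
A match describes letters and is not shown to be a bound site, and the lack of one says nothing about regions outside the window.

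Of 80 members, 61 reached 1 FPKM in at least 1 library (76.25%, against 61.5% of all genes) and 52 did so in every library. By mean over the libraries, 6 members were at 50 FPKM or more, 23 between 10 and 50, 25 between 1 and 10 and 26 below 1. ANAC063, ANAC064, ANAC065, ANAC067 and ANAC093 were listed at 0 in all 4 libraries. Summed over the family, NAC genes held 0.128%, 0.114%, 0.128% and 0.123% of all FPKM in hho2phr1, phr1, hho2-1 and Col-0.

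The 5 most abundant members differed little between genotypes. VNI2 (ANAC083), a repressor that binds the vessel regulator VND7, was at 204 FPKM in hho2phr1, 184 in phr1, 196 in hho2-1 and 195 in Col-0. ANAC102, of the ATAF subfamily of stress regulators, was at 92.4, 84.2, 86.4 and 89.3 FPKM in hho2phr1, phr1, hho2-1 and Col-0. In the same order, ANAC047, which promotes petiole growth under waterlogging, was at 77.6, 62.1, 78.4 and 72.7 FPKM. These 3 had overlapping intervals across all 4 libraries, where the interval is the authors' 95% confidence interval of the FPKM value. ANAC017 stood at 58.6, 52.4, 51.9 and 57.5 FPKM, and ORS1 (ANAC059), a promoter of senescence, at 51.8, 51.1, 58.8 and 53.9, again with overlap of all 4.

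**Figure D1:**
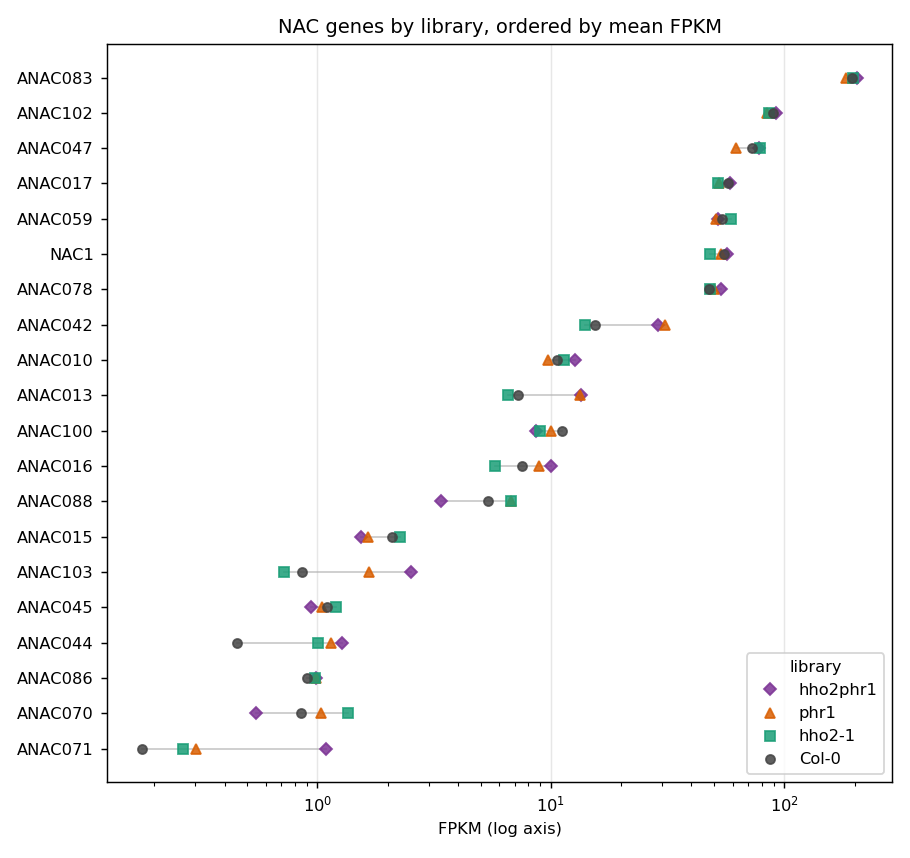
FPKM (log axis) of 20 NAC genes in the 4 libraries, ordered by mean, with 1 point per library and a line over the range. Genes at the top, such as ANAC083 at 184 to 204 FPKM, have points that nearly coincide, while ANAC042, ANAC013 and ANAC103 have the phr1 and hho2phr1 points to the right of the hho2-1 and Col-0 points.

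Across the 61 members at 1 FPKM or more, the range over the 4 libraries had a median of 0.34 on the scale of log2(FPKM + 1), and across 20650 genes it was 0.28. The median level of those members was 9.69 FPKM, against 14.6 for all genes. At least 1 pair of libraries had intervals apart for 5 of 61 members, where 6.09% of all genes did. Those members were ANAC013, ANAC016, JUB1, ANAC071 and ANAC103. In the other members at that level the intervals of all 4 libraries overlapped pairwise. Below it, ANAC061 had intervals apart in hho2phr1 and hho2-1.

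The first question is what differed without full PHR1 function, which the design shows in pairs of libraries that share none: phr1 against Col-0, and hho2phr1 against hho2-1. JUB1, a hydrogen peroxide-induced regulator that delays senescence, was at 28.8 FPKM in hho2phr1 and at 30.9 in phr1, against 14.0 for hho2-1 and 15.4 for Col-0. Both libraries with the phr1 allele lay above both without it. The lowest interval bound with the allele was 21.8 FPKM in hho2phr1, and the highest without it was 19.6 in Col-0. The level in phr1 was 2.01 times that in Col-0, and the level in hho2phr1 was 2.06 times that in hho2-1, with log2 differences of 0.96 and 0.99.

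ANAC013, at chromosome 1, 11911679 to 11914735 in the table, followed the same order. It was at 13.5 FPKM in hho2phr1 and at 13.3 in phr1, against 6.58 for hho2-1 and 7.20 for Col-0. Intervals with the allele began at 10.1 FPKM or above, and those without it ended at 9.13 or below. The ratios were 1.85 for phr1 against Col-0 and 2.05 for hho2phr1 against hho2-1, with log2 differences of 0.81 and 0.93. In the table ANAC013 shares its interval with AT1G32880 on the opposite strand, which was listed at 0.060 to 0.218 FPKM in the 4 libraries.

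ANAC103, which acts in responses to endoplasmic reticulum stress and DNA damage, had low values with the same order. It was at 2.52 FPKM in hho2phr1 and at 1.67 in phr1, against 0.719 for hho2-1 and 0.859 for Col-0. The intervals of hho2phr1 and hho2-1 were apart, at 1.63 to 3.41 and 0.358 to 1.08 FPKM. Those of phr1 and Col-0 overlapped, at 1.00 to 2.34 and 0.448 to 1.27. Its ratios were 3.50 for hho2phr1 against hho2-1 and 1.94 for phr1 against Col-0, which the pseudocount of 1 shrinks to log2 differences of 1.03 and 0.52.

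ANAC016, a membrane-bound promoter of senescence, was at 10.03 FPKM in hho2phr1 and at 8.91 in phr1, against 5.76 for hho2-1 and 7.50 for Col-0. Its intervals were apart for hho2phr1 and hho2-1, where the log2 difference was 0.71. For phr1 against Col-0 the difference was 0.22 and the intervals overlapped. ANAC071, a gene of tissue reunion after wounding, was at 1.09 FPKM in hho2phr1 and between 0.178 and 0.303 in the other 3 libraries. Its interval was apart from that of Col-0 only, at 0.458 to 1.73 against 0.00 to 0.372 FPKM. ANAC016, ANAC071 and ANAC088 were chosen for description after their values were seen.

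**Figure D2:**
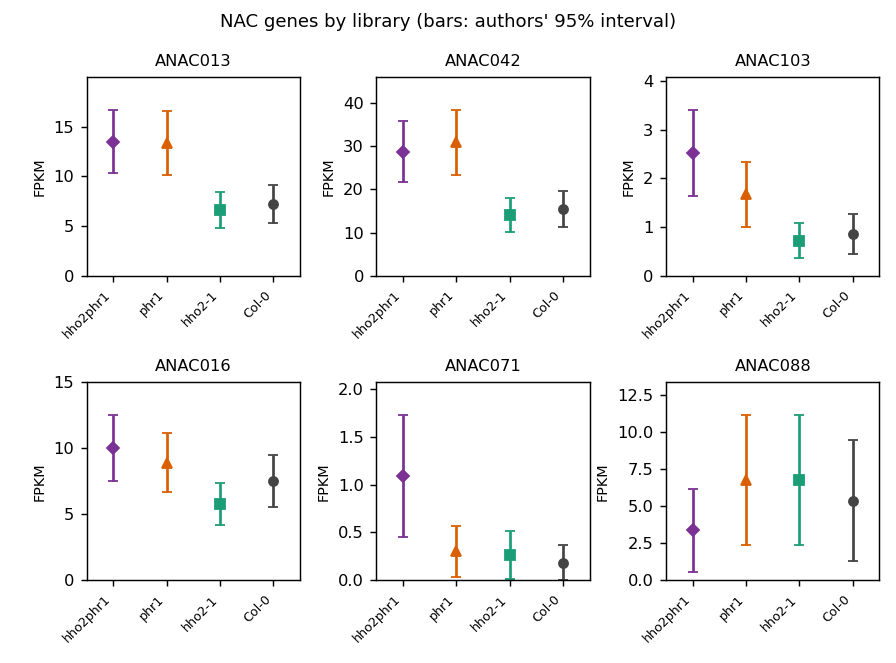
FPKM of 6 NAC genes in hho2phr1, phr1, hho2-1 and Col-0, with bars for the authors' 95% interval. It rests on 1 library per genotype, so variation between plants was not measured. For ANAC013 and ANAC042 the bars of the 2 libraries with the phr1 allele lie wholly above those of the 2 without it, and for ANAC088 all 4 bars overlap.

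Counted over the family, few members passed a size of 2-fold, taken as a difference of at least 1 in log2(FPKM + 1) with 1 FPKM or more in either library. In phr1 against Col-0 this was 0 of 59 members, where 1.35% of 20323 genes were called. In hho2phr1 against hho2-1 it was 1 of 59, ANAC103, where 1.98% of 20456 genes were called. Both shares are near the background. Intervals were apart for 2 of 59 members in phr1 against Col-0 (1.25% of all genes) and for 4 of 59 in hho2phr1 against hho2-1 (4.01% of all genes).

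A size of 1.5-fold in the same direction in both backgrounds was reached by 2 of 57 members, ANAC013 and JUB1, both higher. Of 20129 genes compared, 1.1% were 1.5-fold higher in both backgrounds, and 0.392% were lower, which 0 members were. The median difference over members was -0.04 in phr1 against Col-0 and 0.14 in hho2phr1 against hho2-1, beside medians of -0.002 and 0.005 over all genes. Above 0 stood 26 of 59 members in phr1 against Col-0 (49.5% of all genes), and 37 of 59 in hho2phr1 against hho2-1 (50.7% of all genes). After rescaling the libraries to equal sums, 15 of 58 and 32 of 61 members were above 0, where 31.2% and 33.8% of all genes were. So these splits depend on scaling, and the shares over all genes moved down as well. Organ markers had the same sign as the NAC medians: in hho2phr1 against hho2-1, 6 of 7 root markers (median 0.29, TIP2;3 at 2-fold) and 6 of 7 shoot markers (median 0.20) were above 0, and in phr1 against Col-0, 1 of 7 root markers (median -0.11) and 2 of 7 shoot markers (median -0.14) were. Their part in the splits was not tested.

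**Figure D3:**
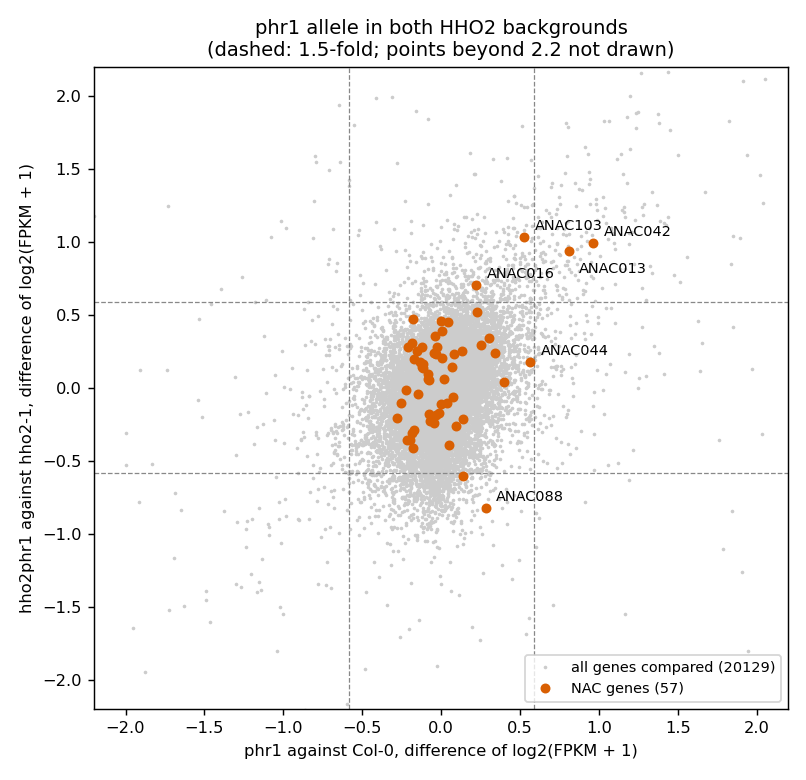
Difference of log2(FPKM + 1) with the phr1 allele, in phr1 against Col-0 (x axis) and in hho2phr1 against hho2-1 (y axis), for 57 NAC genes (orange) and all 20129 genes compared (grey), with dashed lines at 1.5-fold. ANAC013 and ANAC042 lie beyond the dashed lines in the upper right, ANAC103 and ANAC016 pass the upper horizontal line only, and ANAC088 and ANAC070 pass the lower one. The axes end at 2.2, and 73 genes beyond them, with 0 NAC genes among them, are not drawn.

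Mitochondrial stress genes known to act downstream of ANAC013 and ANAC017 were taken as a companion list of 8 genes. Like the other lists, it was chosen with earlier results of these data known. Its counts beside those of all genes are therefore description and no test. In phr1 against Col-0, 7 of 8 were above 0 (49.5% of all genes), with a median of 0.42. In hho2phr1 against hho2-1 all 8 were (50.7% of all genes), with a median of 0.62. AT2G21640 was at 16.8 FPKM in hho2phr1 and at 14.7 in phr1, against 4.02 for hho2-1 and 3.45 for Col-0. Its ratios were 4.27 for phr1 against Col-0 and 4.18 for hho2phr1 against hho2-1, and its intervals were apart both times. SOT12, a sulfotransferase gene, was at 41.4 and 32.2 FPKM in hho2phr1 and phr1, against 16.3 and 15.8 in hho2-1 and Col-0.

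OM66, which encodes an outer mitochondrial membrane ATPase, was at 21.6 and 19.9 FPKM in hho2phr1 and phr1, against 13.3 and 10.1 in hho2-1 and Col-0, with intervals apart in both pairs. AT2G21640, SOT12 and OM66 were the 3 of 8 at least 1.5-fold higher in both backgrounds, where 1.1% of 20129 genes were. AOX1A, the alternative oxidase that bypasses part of the respiratory chain, was at 112 and 94.5 FPKM in hho2phr1 and phr1, against 63.7 and 64.6 in hho2-1 and Col-0. Its intervals were apart for hho2phr1 and hho2-1 and overlapped for phr1 and Col-0. The exception in direction was the glutathione transferase gene GSTU24, at 92.6 FPKM in phr1 where Col-0 had 111. For GSTU24, NDB2 and the listed genes AT5G64400 and AT5G09570, intervals overlapped in every pair of libraries. ANAC017, which was among the most abundant members, differed by -0.13 and 0.17 in the same comparisons.

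**Figure D4:**
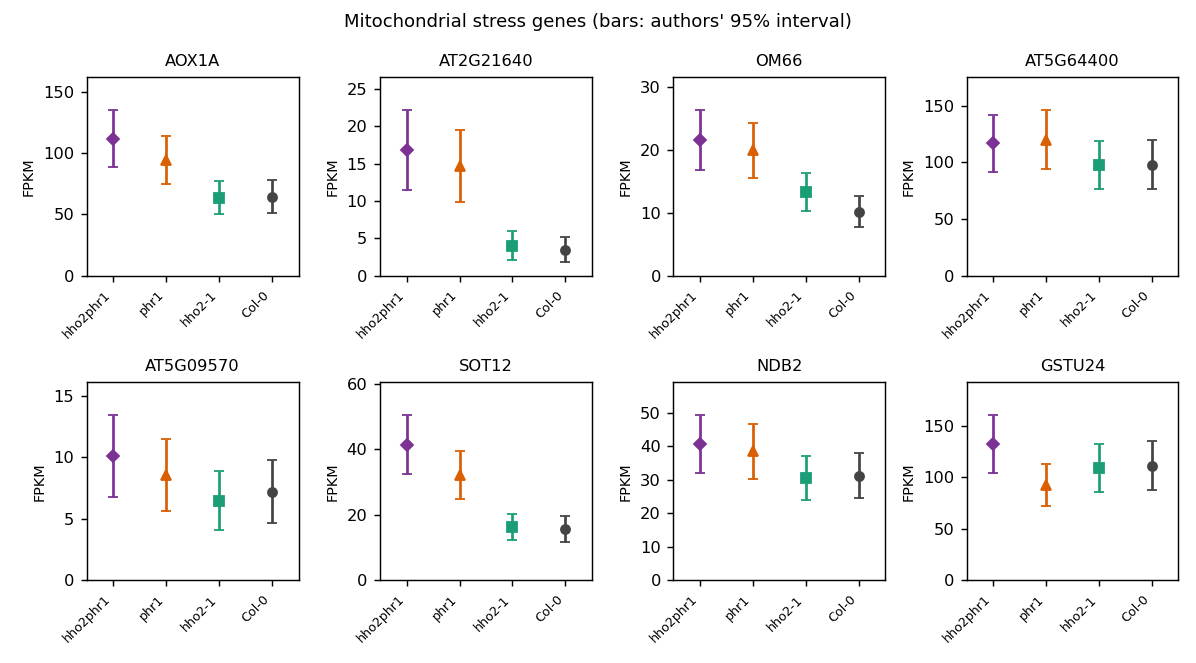
FPKM of the 8 mitochondrial stress genes in hho2phr1, phr1, hho2-1 and Col-0, with bars for the authors' 95% interval. AT2G21640 stands at 16.8 and 14.7 FPKM in hho2phr1 and phr1 against 4.02 and 3.45 in hho2-1 and Col-0. The bars of AT5G64400, AT5G09570, NDB2 and GSTU24 overlap in every pair.

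Genes that respond to touch and handling moved with some of these differences. Of 8 such markers, 6 were above 0 in phr1 against Col-0 (median 0.19), where 49.5% of all genes were. In hho2phr1 against hho2-1 all 8 were (median 0.65), where 50.7% of all genes were. Their summed level was 702, 549, 443 and 526 FPKM in hho2phr1, phr1, hho2-1 and Col-0, and no marker was at 0. ZAT12, a zinc-finger gene of rapid oxidative stress responses, was at 54.0 and 36.4 FPKM in hho2phr1 and phr1, against 22.5 and 21.5 in hho2-1 and Col-0. It was the only 1 of the 8 at least 1.5-fold higher in both backgrounds (1.1% of all genes). The 2 below 0 in phr1 against Col-0 were TCH4, at 117 against 159 FPKM, and CBF2, at 2.60 against 4.89. The part of these markers in the NAC differences was not tested.

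Membrane-bound members, of which 15 were found and 13 compared, included ANAC013, ANAC016 and ANAC017. ANAC078 and ANAC053, which activate proteasome genes when the proteasome is impaired, were at 47.4 to 53.3 and 43.0 to 53.4 FPKM over the 4 libraries. Of the 8 proteasome genes of the companion list, 2 were above 0 in phr1 against Col-0 (49.5% of all genes). In hho2phr1 against hho2-1, 4 of the 8 were (50.7% of all genes). Their medians were -0.04 and 0.03, with 0 genes at 2-fold, where 1.35% and 1.98% of all genes were. The most abundant of them were the subunit genes PAG1, at 101 to 113 FPKM, and RPT2A, at 96.4 to 103. ANAC062, released from the plasma membrane in cold and ER stress, was at 40.6, 35.7, 30.8 and 35.6 FPKM in hho2phr1, phr1, hho2-1 and Col-0. In the membrane-bound list as a whole, 6 of 13 members were above 0 in phr1 against Col-0 and 10 of 13 in hho2phr1 against hho2-1. Over the family these counts were 26 of 59 and 37 of 59. The stress and senescence list also had 10 of 13 in hho2phr1 against hho2-1. Of all genes, 49.5% and 50.7% were above 0 in these pairs.

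Stress and senescence members, with 13 of 15 compared, had medians of -0.07 in phr1 against Col-0 and 0.24 in hho2phr1 against hho2-1. JUB1 was the only one of them at 1.5-fold in both pairs. ANAC019 and ANAC055, linked to jasmonate and abscisic acid responses, were at 16.3 and 40.7 FPKM in hho2phr1, 11.1 and 30.9 in phr1, 13.3 and 37.0 in hho2-1 and 13.0 and 33.5 in Col-0. ANAC046, a promoter of chlorophyll breakdown, was at 30.8, 27.9, 22.2 and 27.0 FPKM in hho2phr1, phr1, hho2-1 and Col-0. Intervals overlapped for all 3 genes in every comparison.

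DNA damage members were all low. ANAC044, which with ANAC085 arrests the cell cycle after DNA damage, was at 1.27, 1.15 and 1.01 FPKM in hho2phr1, phr1 and hho2-1, against 0.453 in Col-0. Its 3 mutant libraries lay above Col-0, with overlapping intervals. ANAC085 was at 0.260 and 0.268 FPKM in hho2phr1 and phr1, against 0.026 and 0.074 in hho2-1 and Col-0, below the level compared.

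Of the xylem and fibre wall members 8 were in the rule and 7 compared. Their differences with the phr1 allele lay between -0.26 and 0.34. So 0 were 1.5-fold higher or lower in both backgrounds, where 1.1% and 0.392% of all genes were. SND3 (ANAC010), an activator of secondary wall genes, was at 12.7, 9.72, 11.4 and 10.7 FPKM in hho2phr1, phr1, hho2-1 and Col-0. SND1 (ANAC012), a master switch of fibre walls, was listed at 0 in all libraries except Col-0, at 0.072 FPKM. Of 13 wall and xylem genes that such factors act on, the 12 compared had medians of -0.04 in phr1 against Col-0 and 0.02 in hho2phr1 against hho2-1. Of these 12, 0 were 2-fold different in either pair, where 1.35% and 1.98% of all genes were. Among them were the xylem proteases XCP1, at 48.4 to 63.3 FPKM, and XCP2, at 53.6 to 57.8.

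Root cap members were at low levels. BRN1 (ANAC015), which matures root cap cells, was at 1.54 and 1.65 FPKM in hho2phr1 and phr1, against 2.25 and 2.08 in hho2-1 and Col-0. BRN2 (ANAC070), its close relative, was at 0.547, 1.04, 1.36 and 0.854 FPKM in hho2phr1, phr1, hho2-1 and Col-0. Cell death genes that run at the end of root cap and xylem cell life were listed as a set of 7. All 7 were below 0 in phr1 against Col-0, with a median of -0.36. In hho2phr1 against hho2-1 this held for 6 of 7, with a median of -0.33. After rescaling to equal sums 7 of 7 were below 0 there, where 33.8% of all genes were above 0. Over all 20129 genes as deposited, 30.9% were below 0 in both backgrounds, as 6 of these 7 were.

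BFN1, a nuclease of dying cells, was at 29.5 and 27.4 FPKM in hho2phr1 and phr1, against 37.2 and 35.5 in hho2-1 and Col-0. CEP1, a cysteine protease, was at 7.50 and 6.36 FPKM in hho2phr1 and phr1, against 10.4 and 9.88 in hho2-1 and Col-0. SCPL48, a carboxypeptidase-like gene, was at 117 and 111 FPKM in hho2phr1 and phr1, against 143 in both hho2-1 and Col-0. On the scale of log2(FPKM + 1) each of these differences was smaller than 1.5-fold, and the intervals overlapped. Of the 7 genes, 0 were 2-fold different. The shares of all genes were 1.35% in phr1 against Col-0 and 1.98% in hho2phr1 against hho2-1.

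**Figure D5:**
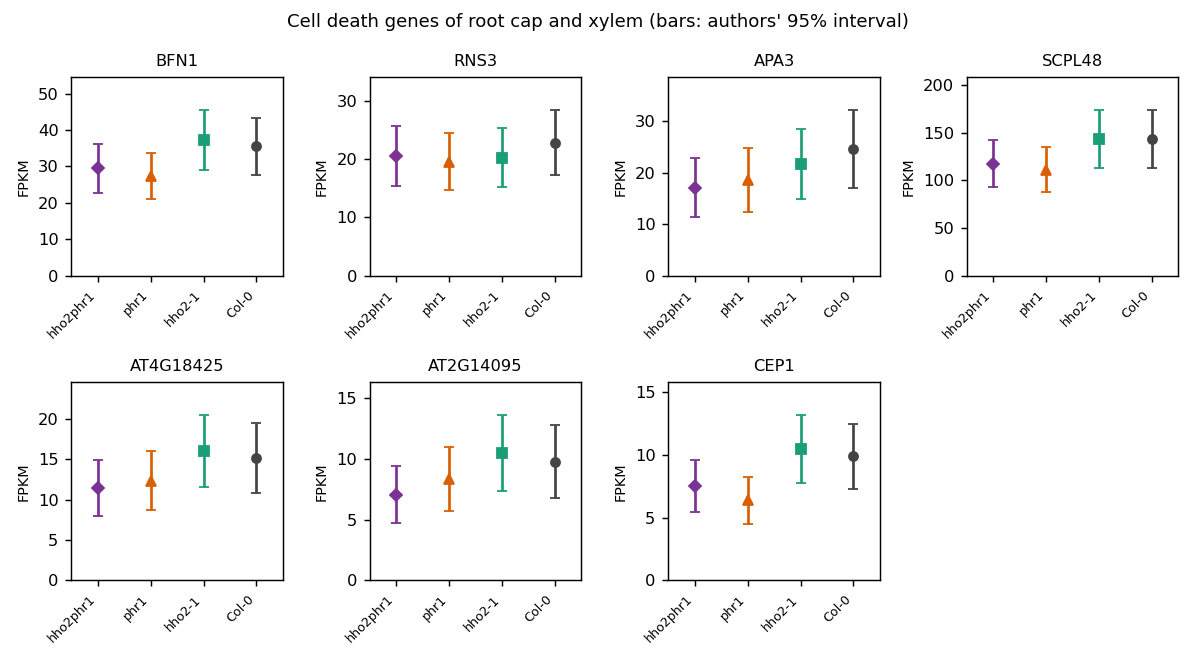
FPKM of 7 cell death genes of root cap and xylem in hho2phr1, phr1, hho2-1 and Col-0, with bars for the authors' 95% interval. The hho2phr1 and phr1 points lie below the hho2-1 and Col-0 points in 6 panels, RNS3 being the exception, and the bars overlap in every panel.

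Boundary and lateral root members in the rule numbered 3. NAC1, which carries auxin signals to lateral root formation, was at 56.6, 53.8, 48.0 and 55.1 FPKM in hho2phr1, phr1, hho2-1 and Col-0. ANAC100, a target of microRNA miR164, was at 8.67, 9.99, 8.94 and 11.1 FPKM in the same order. The phloem members ANAC045 and ANAC086, which clear the nucleus of sieve elements, were at 0.934 to 1.21 and 0.899 to 0.990 FPKM. Of the 80 members, 32 were in none of these role lists. Of those 32, 18 were compared in hho2phr1 against hho2-1, with differences between -0.83 and 0.72.

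The second question is what differed with the hho2 allele, in hho2-1 against Col-0 and in hho2phr1 against phr1, which again share no library. JUB1 and ANAC013 were close in both pairs, with log2 differences of -0.13 and -0.10 for JUB1 and of -0.11 and 0.01 for ANAC013. On the scale of log2(FPKM + 1), no member was 2-fold different in hho2-1 against Col-0 (0 of 58, where 0.88% of 20341 genes were). Nor was any in hho2phr1 against phr1 (0 of 58, where 1.11% of 20353 genes were). By plain ratio some low members were, such as ANAC044 at 2.23 times in the first pair and ANAC071 at 3.61 times in the second. Of 55 members compared in both, 0 were 1.5-fold the same way, where 0.484% of 20044 genes were. Intervals were apart for 0 members in either pair, against 0.531% and 1.09% of all genes.

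In hho2-1 against Col-0, differences lay between -0.51 and 0.47 with a median of -0.05, and 21 of 58 members were above 0 (50.3% of all genes). After rescaling to equal sums 35 of 59 members were above 0, where 67.6% of all genes were. As deposited, the lowest difference was that of ANAC097, at 5.28 FPKM in hho2-1 where Col-0 had 7.96, and the highest that of ANAC044. In hho2phr1 against phr1, differences lay between -0.82 and 0.68, with a median of 0.04 and 38 of 58 members above 0 (48.4% of all genes). The highest was ANAC071 and the lowest ANAC088. Among organ markers in hho2-1 against Col-0, 1 of 7 root genes (median -0.21) and 6 of 7 shoot genes (median 0.24) were above 0. In hho2phr1 against phr1, 4 of 7 root genes (median 0.05) and 6 of 7 shoot genes (median 0.59) were. Of the 8 handling markers, 1 was above 0 in hho2-1 against Col-0 (median -0.31) and 7 in hho2phr1 against phr1 (median 0.26). The part of these markers was not tested.

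ANAC088 was at 3.38 FPKM in hho2phr1, against 6.75 in phr1, 6.77 in hho2-1 and 5.38 in Col-0. Its intervals were wide, at 0.566 to 6.19 FPKM in hho2phr1 and 2.36 to 11.1 in phr1, and overlapped in every pair. In the table it shares its interval with SIP1, an aquaporin gene on the other strand, at 5.65, 7.17, 7.78 and 9.20 FPKM in hho2phr1, phr1, hho2-1 and Col-0. How reads were assigned between them is not given in the sources used here.

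The double mutant hho2phr1 against Col-0 shares libraries with the comparisons above and adds no independent value. On the scale of log2(FPKM + 1), 0 of 60 members were 2-fold different there, where 1.91% of 20400 genes were. Above 0 were 35 of 60 (48.7% of all genes). By plain ratio some low members passed 2-fold: ANAC071 and ANAC044 were at 6.14 and 2.80 times Col-0, and ANAC094 was at 0.488 times. Intervals were apart for 4 of 60 members, ANAC013, JUB1, ANAC071 and ANAC103, against 2.38% of all genes. JUB1 was at 1.87 times its Col-0 level, as was ANAC013. ANAC103 was at 2.93 times, which the pseudocount of 1 shrinks to a log2 difference of 0.92. ANAC003, a member of no role list, was at 22.7 FPKM in hho2phr1 against 14.9 in Col-0, with overlapping intervals.

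NAC genes lie close together in places. Chromosomes 1 to 5 hold 22, 6, 20, 9 and 23 members. Gaps of at most 15000 bases separate 15 neighbouring pairs, which hold 27 members. ANAC077 and ANAC078 lie 399 bases apart on chromosome 5, at mean levels of 0.024 and 49.7 FPKM. ANAC016 and ANAC017 lie 163 bases apart on chromosome 1, at 8.05 and 55.1 FPKM, and with the phr1 allele ANAC016 differed by 0.71 in hho2phr1 against hho2-1 where ANAC017 differed by 0.17. ANAC050, ANAC052 and ANAC053 lie in a row on chromosome 3 at 24.4, 32.0 and 46.8 FPKM. Near copies such as ANAC050 and ANAC052 may share reads, and how the authors treated these is not given in the sources used here.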

How the data were processed

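The submitters' processing notes name TopHat2 2.0.11, Cuffdiff 2.2.1 and the TAIR10 genome. The deposited values are FPKM per gene and library with lower and upper confidence bounds, per the file headers. The bounds are read as the 95% intervals that Cuffdiff writes. The annotation release, strand setting, treatment of multiply aligned reads and scaling between libraries are not given in the sources used here. As deposited, median differences over all genes lay between -0.007 and 0.005 in the 5 comparisons. Rescaling to equal sums moved them to between -0.105 and 0.081, so it takes the libraries away from a common median. The WT columns were matched to Col-0 and the dbl columns to hho2phr1.

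Computed here, with Python 3.11.15, numpy 2.4.6 and pandas 2.3.3, were differences of log2(FPKM + 1), which understate the change of genes with low values. Genes with at least 1 FPKM in either library were compared. The call by size was tested on simulated data. No test between genotypes was made. Named members were those 2-fold different or 1.5-fold different in both backgrounds, the 5 highest, and the 2 highest of each role list; from the companion lists, genes 2-fold different, otherwise the 2 highest. Other genes given with values (among them ANAC003, ANAC019, ANAC046, ANAC053, ANAC055, ANAC061, ANAC062, ANAC085, ANAC097, SND1, CEP1, AOX1A and GSTU24) were chosen after their values were seen. The rule, members and lists were chosen with earlier results of these data known. All 80 members matched the reference by locus. The TAIR10.1 genome was used for sequence: 14887 of 28626 genes with an interval of their own had the same start or end there as in the table. Protein sequences were not used here. Of the 67 genes in the role lists, 19 have other short names (such as ATAF1 or VND7) and are not members.

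Depth came from the line of 1/FPKM on transcript length over 241 to 260 single-fragment genes per library, within 5%. Alternatives were pseudocounts of 0.1 and 5, no minimum and a minimum of 5 FPKM, 2 rescalings, and leaving out genes that share an interval (7 members).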

Additional observations from a re-analysis of the deposited data

Results flagged for a closer look

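ANAC088 had effects of opposite sign in the 2 backgrounds of each allele. The phr1 allele difference was -0.83 in hho2phr1 against hho2-1 and 0.28 in phr1 against Col-0, and the hho2 allele difference was -0.82 in hho2phr1 against phr1 and 0.28 in hho2-1 against Col-0. The gap between backgrounds, -1.11 on the log2 scale, is the same quantity in both readings and was not tested. Of 20129 genes, 0.964% had opposite signs and a gap of at least 1 with the phr1 allele. All 4 intervals of ANAC088 overlapped, and the gene shares its interval with SIP1.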

How the results depend on the processing

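With 1 library per genotype, variation between plants was not measured, and no library could be left out. The authors' intervals were the only measure of precision at hand. No paired analysis was possible because each genotype has a single library. A pseudocount of 0.1 gave 2 members at 2-fold in phr1 against Col-0, 6 in hho2phr1 against hho2-1, 1 in hho2-1 against Col-0, 1 in hho2phr1 against phr1 and 3 in hho2phr1 against Col-0; by construction it gives low values more weight. In hho2phr1 against hho2-1 the count was 0 with a pseudocount of 5, 0 with a minimum of 5 FPKM and 0 after rescaling to equal sums, which moved the NAC median there to 0.027 and took the median of all genes to -0.105. Leaving out genes that share an interval removed ANAC013, so 1 member, JUB1, remained at 1.5-fold with the phr1 allele in both backgrounds. Of 89 alternative values for these counts and medians, these 10 moved. For ANAC013, JUB1, ANAC103, ANAC088, ANAC071 and ANAC016, 39 of 120 differences moved by more than 0.1 and 0 reversed a called direction under other pseudocounts and scalings. With pseudocounts of 0.1 and 5, ANAC103 in hho2phr1 against hho2-1 stood at 1.68 and 0.39, and ANAC071 in hho2phr1 against Col-0 at 2.10 and 0.23.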

Other observations

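The 6 seed markers listed summed to 88.2 and 62.5 FPKM in hho2phr1 and hho2-1, against 3.48 and 14.0 in phr1 and Col-0. In hho2phr1, CRU3 and CRA1 were at 40.1 and 37.2 FPKM. SESA4 went the other way, at 0.152 and 0.276 FPKM in hho2phr1 and hho2-1, against 0.523 and 0.559 in phr1 and Col-0. CRU2 was at 0 FPKM in all libraries except Col-0. The part of seed markers in any NAC difference was not tested. ANAC061, below the level compared, was at 0.661 and 0.582 FPKM in hho2phr1 and phr1, against 0.046 and 0.215 in hho2-1 and Col-0.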
